A study of Sus scrofa with 67 samples.

Results

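The 8 genes described here encode the laminin chains, nidogens and perlecan of the basement membrane, the sheet of extracellular matrix that wraps each muscle fibre and each capillary. They were chosen by name as the rows LAMA2, LAMA4, LAMB1, LAMB2, LAMC1, NID1, NID2 and HSPG2 of a read count table of 18158 genes, and all 8 were present and passed the filter on low counts in every fit. RNA had been sequenced from the longissimus dorsi, a long back muscle rich in fast fibres, of Swiss Large White pigs after weaning. Pigs had 2 diets in the first 4 weeks and 4 in weeks 5 to 8. The group LP (n = 6) had a diet with reduced crude protein in the first period, and STD (n = 6) a standard diet. In the second period 3 groups of 12 came from the low protein diet. Of these, LP-STD ate the standard diet, and LP-STD10 and LP-STD20 ate it with digestible lysine raised by 10% and 20%. The pigs of STD-STD (n = 12) had the standard diet throughout. A further 7 libraries are labelled BL, a name that the labels do not explain, so their age and diet are not known here. The pigs were females and castrated males of several litters, and neither sex nor litter nor age is given for single libraries.

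Laminins are trimers of an α, a β and a γ chain. In muscle, the α2 chain (LAMA2) with β1 (LAMB1) and γ1 (LAMC1) forms the main laminin around the fibre, and it binds dystroglycan and integrin α7β1 on the fibre surface; loss of LAMA2 causes a congenital muscular dystrophy in humans and mice. The α4 chain (LAMA4) belongs to the laminins of blood vessel walls and nerves, and β2 (LAMB2) is enriched at the neuromuscular synapse and in vessels. Nidogens (NID1, NID2) bind the laminin γ1 chain on one side and collagen IV and perlecan on the other, and perlecan (HSPG2) is a large heparan sulphate proteoglycan that also binds dystroglycan and growth factors.

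On the Sscrofa11.1 assembly, 3 of the genes lie on chromosome 1: LAMA2 at 1:33765412-34359741, LAMA4 at 1:78071990-78224564 and NID2 at 1:181699098-181773084. LAMB1 (9:107670120-107747242) and LAMC1 (9:124283668-124405967) share chromosome 9. HSPG2 lies at 6:79849691-79958283, LAMB2 at 13:31738282-31750623 and NID1 at 14:55239327-55346948. These are the spans of whole genes, exons and introns together, and the counts are over each gene.

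Libraries held between 26680567 and 36935497 counted reads. The 8 genes had from 585 reads (LAMA4) to 22646 reads (HSPG2) in single libraries. Levels are given in CPM, the counts scaled to a common library size, and are not adjusted for gene length, so that a gene is compared with itself across groups and never with another gene. BL replicate 4 stood apart from the other BL libraries. Its 12 endothelial marker genes summed to 324 CPM, against 503 to 715 CPM in the other 6 BL libraries, its 10 fibroadipogenic (connective tissue cell) markers to 2500 against 6321 to 14555 CPM, and its 7 macrophage markers to 220 against 28.9 to 158 CPM. The 9 mural (vessel wall) markers summed there to 302 against 475 to 652 CPM, and the 7 muscle fibre markers to 159087 against 172736 to 283746 CPM. The 5 satellite cell markers, at 31.7 CPM, lay within the range of the other BL libraries. The 7 muscle fibre markers analysed, among them ACTA1 and CKM, summed to 124727 to 340051 CPM over the 67 libraries, as a sample of muscle would have; the fibre type myosins MYH1, MYH2, MYH4 and MYH7 were not analysed here. In bulk tissue, fewer cells of a type and less RNA per cell cannot be told apart.

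Mean levels of NID1, NID2 and LAMB1 formed 2 blocks, with the 4 second-period groups below LP, STD and BL. NID1 averaged 160 ± 23.7 CPM in BL, 176 ± 11.2 in LP and 158 ± 13.7 in STD, then 103 ± 9.07 in LP-STD, 103 ± 14.2 in LP-STD10, 94.2 ± 14.0 in LP-STD20 and 97.4 ± 10.3 in STD-STD (mean ± SD over libraries). No library of the 4 second-period groups reached the lowest LP or STD library. In order of level the groups ran LP, BL, STD, LP-STD10, LP-STD, STD-STD and LP-STD20, and neighbours differed by less than the larger of their SDs except between STD and LP-STD10.

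NID2, the other nidogen, averaged 60.5 ± 19.6 CPM in BL, 73.6 ± 4.82 in LP and 62.1 ± 6.03 in STD. In LP-STD, LP-STD10, LP-STD20 and STD-STD it averaged 45.3 ± 6.37, 41.5 ± 6.31, 42.5 ± 4.13 and 43.0 ± 6.72 CPM. LP was again highest, above STD by more than either SD, and the 4 second-period groups lay within 1 SD of each other.

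LAMB1 averaged 144 ± 36.3 CPM in BL, 143 ± 10.0 in LP and 136 ± 7.65 in STD, which did not differ beyond their spread. Its second-period levels were 92.3 ± 6.42 CPM in LP-STD, 94.0 ± 8.02 in LP-STD10, 91.2 ± 11.4 in LP-STD20 and 92.6 ± 9.34 in STD-STD, a range narrower than any of their SDs. The step between the 2 blocks was wider than the SD of any group.

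The α chains followed other orders. LAMA2 averaged 155 ± 20.4 CPM in BL, 104 ± 16.9 in LP and 113 ± 21.3 in STD, and 81.9 ± 10.4, 95.9 ± 15.6, 85.4 ± 11.7 and 76.9 ± 6.61 CPM in LP-STD, LP-STD10, LP-STD20 and STD-STD. Ordered by level the groups ran BL, STD, LP, LP-STD10, LP-STD20, LP-STD and STD-STD, with each pair of neighbours within 1 SD except BL and STD. LAMA4 was highest in LP at 83.3 ± 6.55 CPM, followed by STD at 70.2 ± 7.71, and the other 5 groups averaged 58.9 to 61.1 CPM, with SDs of 3.96 to 7.74 in the second-period groups and 22.6 in BL. The BL mean of LAMA4 rested on replicate 4, at 16.7 CPM, and was 67.9 ± 12.7 CPM over the other 6 libraries.

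LAMB2 averaged 465 ± 135 CPM in BL, 416 ± 31.3 in LP and 365 ± 26.6 in STD, and 298 ± 39.6, 297 ± 37.0, 309 ± 39.1 and 303 ± 30.6 CPM in LP-STD, LP-STD10, LP-STD20 and STD-STD. LAMC1, which encodes the γ chain shared by most laminins of muscle, had BL, LP and STD in the same order on a narrower scale. It averaged 274 ± 20.4 CPM in BL, 254 ± 11.7 in LP and 234 ± 10.9 in STD. In the second period LAMC1 averaged 203 to 210 CPM. For both genes the 4 second-period groups lay within 1 SD of each other, and STD lay above them by more than its own SD. HSPG2 was highest in LP at 632 ± 27.4 CPM, and the other 6 groups averaged 508 to 545 CPM, each within 1 SD of the next. Without BL replicate 4 the BL levels were 514 ± 39.6 CPM for LAMB2, 585 ± 75.7 for HSPG2, 155 ± 20.9 for LAMB1 and 66.4 ± 12.8 for NID2 (n = 6).

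**Figure D1:**
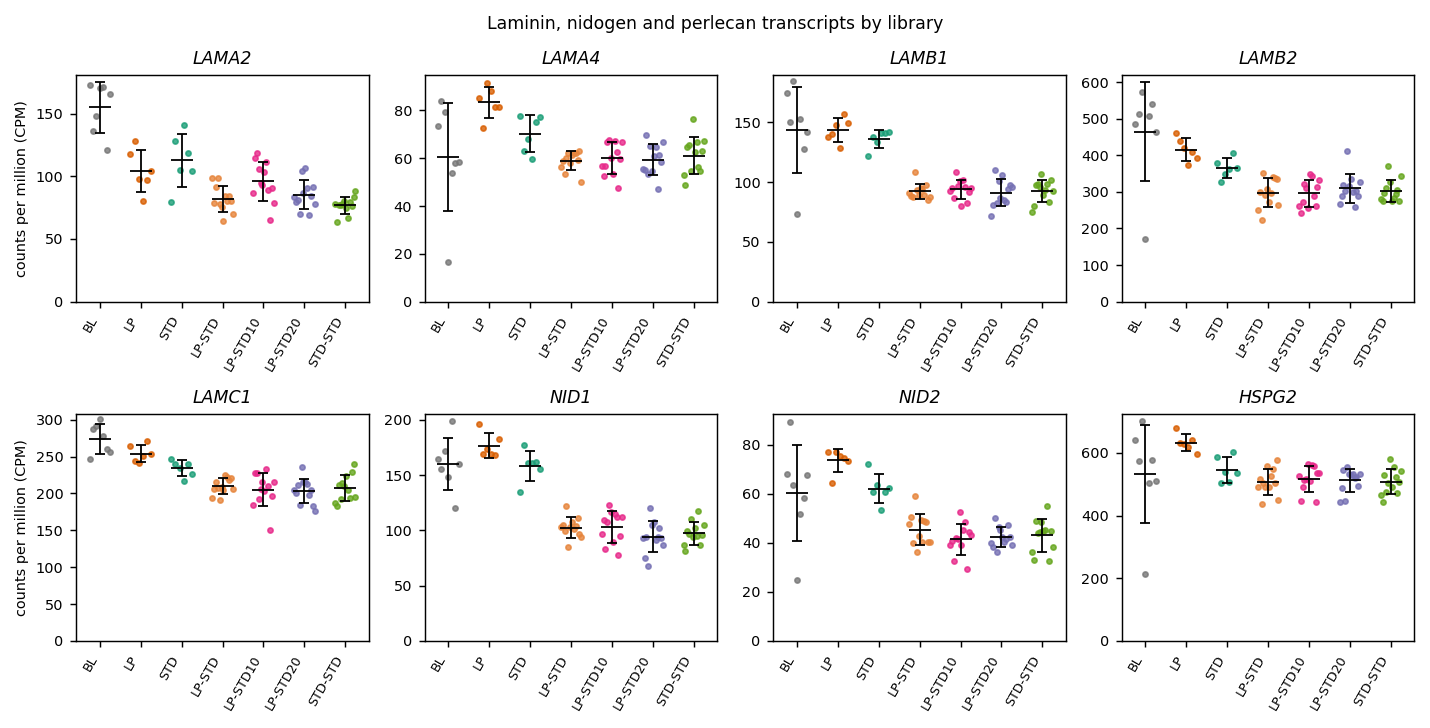
Level of each gene in every library, in CPM (linear axes from 0), by group; points are libraries and bars the mean ± SD (n = 7, 6, 6, 12, 12, 12 and 12 from left to right). NID1 reached at most 123 CPM in the 4 second-period groups and lay at 134 to 196 CPM in LP and STD, while HSPG2 in STD and the second-period groups shared one range; the lowest BL point of LAMA4, LAMB1, LAMB2, NID2 and HSPG2 is replicate 4.

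Refed pigs were set against the low protein pigs by comparing LP-STD with LP, which addresses what the muscle shows after the return to a standard diet and the weeks in between. The 2 groups also differ in age and in library numbering, and these cannot be told apart from the diet. Since the genes were chosen with earlier results of these data known, the calls on them describe these libraries and are read beside the share of all genes called. All 8 genes were lower in LP-STD (edgeR's quasi-likelihood test over 13517 genes, with p adjusted by Benjamini and Hochberg's method and called under 0.05), against 9.04% of all genes called lower. Their log2 differences were -0.78 to -0.27, with a median of -0.49, beside -0.03 for all genes tested. For 7 of the 8 no LP-STD library reached the lowest LP library, which held downwards for 1.46% of all genes.

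The nidogens had the largest differences of the 8. NID1 had 84.7, 103 and 122 CPM (lowest, median and highest of 12 libraries) in LP-STD, against 168, 171 and 196 CPM in LP. The 2 groups did not overlap, and the log2 difference was -0.78 ± 0.09 (SE), a level 1.72-fold lower in LP-STD (adjusted p = 4.13e-09, edgeR). NID2 had 36.4, 45.3 and 59.1 CPM in LP-STD and 64.2, 74.9 and 77.0 CPM in LP. It was lower in LP-STD by a log2 difference of -0.70 ± 0.12, 1.62-fold, again without overlap (edgeR adjusted p = 1.97e-05).

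Among the β and γ chains, LAMB1 had 84.8, 90.4 and 109 CPM in LP-STD, against 129, 144 and 157 CPM in LP, and its log2 difference was -0.63 ± 0.09 (edgeR adjusted p = 6.34e-07). LAMB2, the β chain of synapse and vessel, had 224, 297 and 350 CPM in LP-STD and 373, 415 and 460 CPM in LP, a log2 difference of -0.48 ± 0.11 (edgeR adjusted p = 0.00153). LAMC1 had 191, 208 and 225 CPM in LP-STD and 241, 252 and 271 CPM in LP. For each of these 3 chains every LP-STD library lay below every LP library, and LAMC1 had the smallest difference of the 8, at -0.27 ± 0.06 on the log2 scale (edgeR adjusted p = 0.000981).

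Of the α chains, the vessel chain LAMA4 had 50.0, 59.7 and 63.0 CPM in LP-STD, against 72.5, 83.4 and 91.3 CPM in LP, without overlap. Its log2 difference was -0.50 ± 0.13 (edgeR adjusted p = 0.00329). The fibre chain LAMA2 was the one gene with overlapping groups: it had 64.3, 80.3 and 98.9 CPM in LP-STD and 80.4, 101 and 128 CPM in LP, and 6 of 12 LP-STD libraries lay below the lowest LP library. Its log2 difference of -0.35 ± 0.10 (edgeR adjusted p = 0.0107) was -0.28 without LP replicate 2 and did not pass there (adjusted p = 0.0632). Perlecan had 438, 502 and 579 CPM in LP-STD and 595, 630 and 678 CPM in LP, a log2 difference of -0.32 ± 0.10 (edgeR adjusted p = 0.0155). LP replicates 1 and 2 carry library numbers apart from the other LP libraries, and without both of them the differences of LAMA2 and HSPG2 were -0.19 and -0.27 and did not pass (edgeR adjusted p = 0.306 and 0.119), while the other 6 genes still did.

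On the standard diet throughout, STD-STD was set against STD, which gives the same step in time without an earlier restriction. Here too the groups differ both in age and in library numbering, and these cannot be told apart. Of the 8 genes 5 were lower in STD-STD (edgeR, adjusted p under 0.05), against 7.89% of all genes called lower, and none was higher, against 8.01%. The median log2 difference of the 8 was -0.40, beside -0.01 over all genes tested. STD-STD and STD did not overlap for 2 of the 8, NID1 and LAMB1, beside 1.15% of all genes that lay wholly below.

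NID1 had 81.1, 95.9 and 117 CPM in STD-STD (lowest, median and highest) and 134, 161 and 177 CPM in STD, a log2 difference of -0.70 ± 0.09 (edgeR adjusted p = 1.10e-07). LAMB1 had 74.8, 94.5 and 107 CPM in STD-STD, against 122, 140 and 142 CPM in STD, a log2 difference of -0.56 ± 0.09 (edgeR adjusted p = 9.64e-06). All 12 STD-STD libraries lay below all STD libraries for these genes. LAMA2 had 63.7, 77.4 and 88.1 CPM in STD-STD and 79.6, 112 and 141 CPM in STD, with 9 of 12 STD-STD libraries below the lowest STD library and a log2 difference of -0.55 ± 0.10 (edgeR adjusted p = 7.10e-05). NID2 had 32.7, 44.5 and 55.0 CPM in STD-STD and 53.3, 61.6 and 72.0 CPM in STD, and 1 STD-STD library overlapped the STD range. Its log2 difference was -0.53 ± 0.12 (edgeR adjusted p = 0.00113).

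LAMC1 passed narrowly, with 183, 207 and 240 CPM in STD-STD, against 217, 237 and 247 CPM in STD, and a log2 difference of -0.18 ± 0.06 (edgeR adjusted p = 0.0407). It did not pass without any 1 of STD replicates 1, 2, 3, 5 and 6 or STD-STD replicates 1, 2, 4, 5, 8, 9 and 12 (adjusted p = 0.0510 to 0.106), with the replicate number as a block (0.0581), with DESeq2's size factors in edgeR (0.0524), in a fit of STD-STD and STD alone (0.0556), or with 1 correlation between libraries of a run (0.0700, limma). The remaining 3 genes did not pass. LAMB2 had 274, 296 and 370 CPM in STD-STD and 327, 364 and 406 CPM in STD, a log2 difference of -0.27 ± 0.11 (edgeR adjusted p = 0.0962), which did pass once BL replicate 4 was left out of the shared fit (adjusted p = 0.0142). LAMB2 also passed in limma with quality weights, and the fit of STD-STD and STD alone called 5 of the 8 genes without LAMC1. LAMA4 differed by -0.20 ± 0.13 and HSPG2 by -0.10 ± 0.10 on the log2 scale (edgeR adjusted p = 0.306 and 0.527), with 95% intervals of -0.45 to 0.06 and -0.30 to 0.09 (the estimate ± the t quantile at the fit's degrees of freedom times the SE).

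**Figure D2:**
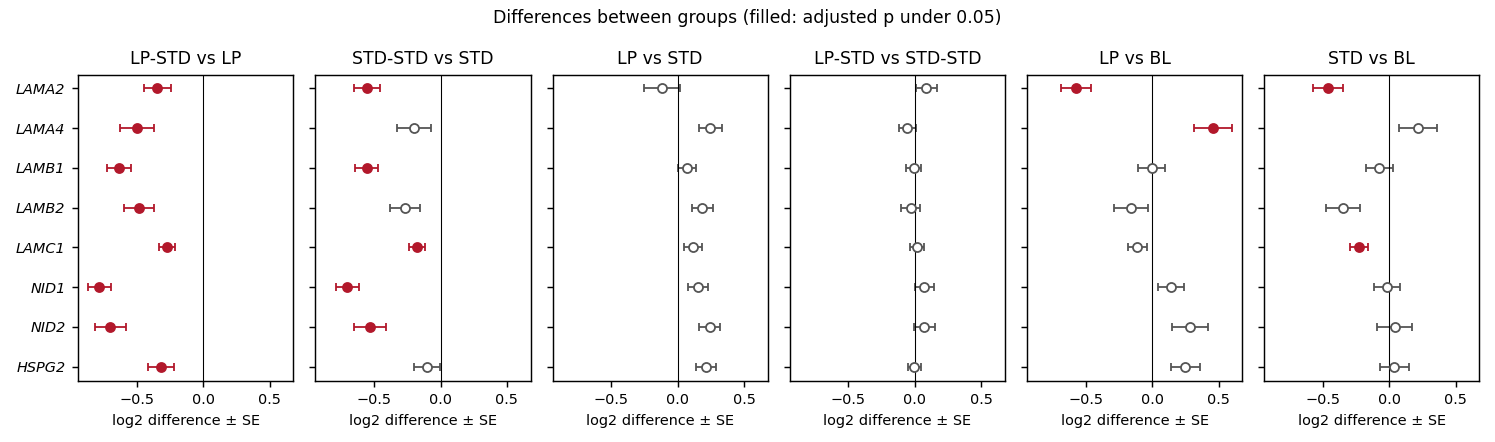
Log2 difference (± SE) of each gene in 6 comparisons, filled where the adjusted p was under 0.05; values left of 0 are lower in the group named at the left of each title. All 8 genes were lower in LP-STD than in LP and 5 lower in STD-STD than in STD, and no point is filled for LP against STD or LP-STD against STD-STD.

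Whether the 2 steps differed was tested as an interaction, the LP-STD minus LP difference less the STD-STD minus STD difference. None of the 8 genes passed, beside 0.163% of all genes called, and none had an unadjusted p under 0.05, beside 8.66% of all genes. The estimates ran from -0.30 ± 0.18 for LAMA4 to 0.20 ± 0.14 for LAMA2 on the log2 scale, and 7 of the 8 were below 0. The larger number of calls in the pigs from the low protein diet is therefore not shown to be a difference between the 2 diet histories; the widest interval, that of LAMA4, ran from -0.66 to 0.06.

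Low protein feeding was set against the standard diet in the first period. None of 12584 genes passed for LP against STD (0% called by edgeR; 1139 genes or 9.05% at an unadjusted p under 0.05; 109 called by DESeq2 and 1 by limma), and none of the 8 genes here passed by edgeR, DESeq2 or limma. Estimates for 7 of the 8 were above 0. NID2 had 64.2, 74.9 and 77.0 CPM in LP and 53.3, 61.6 and 72.0 CPM in STD, with 5 of 6 LP libraries above the highest STD library, and a log2 difference of 0.24 ± 0.08 (edgeR p = 0.00872, adjusted p = 0.355). LAMA4 (0.24 ± 0.09), HSPG2 (0.21 ± 0.07) and LAMB2 (0.18 ± 0.08) also had an unadjusted p under 0.05 (edgeR; adjusted p = 0.404 to 0.508).

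LAMA2 was the one gene with an estimate below 0. It had 80.4, 101 and 128 CPM in LP and 79.6, 112 and 141 CPM in STD, ranges that cover each other almost wholly, and a log2 difference of -0.12 ± 0.14. Without LP replicates 1 and 2 the value was -0.25 (edgeR adjusted p = 0.794). The 95% intervals of the 8 differences ran from -0.40 for LAMA2 to 0.43 for LAMA4.

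In the second period LP-STD was set against STD-STD to ask what remained of the earlier restriction. Again no gene of 13032 passed (0% called by edgeR; 1319 genes or 10.1% at an unadjusted p under 0.05; 7 called by DESeq2), and none of the 8 had an unadjusted p under 0.05. Their log2 differences were -0.06 to 0.09, and all 95% intervals ran within -0.19 to 0.24. NID1, for example, had 84.7, 103 and 122 CPM in LP-STD and 81.1, 95.9 and 117 CPM in STD-STD, and LAMB1 had 84.8, 90.4 and 109 CPM in LP-STD and 74.8, 94.5 and 107 CPM in STD-STD. The groups overlapped for each of the 8 genes.

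Extra lysine after restriction gave no call on these genes either. For LP-STD10 against LP-STD, 0.407% of all genes and none of the 8 passed. LAMA2 had the largest estimate, with 65.0, 93.6 and 119 CPM in LP-STD10 and 64.3, 80.3 and 98.9 CPM in LP-STD, a log2 difference of 0.23 ± 0.08 (edgeR p = 0.00445, adjusted p = 0.167). It was the 1 gene of the 8 with an unadjusted p under 0.05 there, beside 14.4% of all genes. For LP-STD20 against LP-STD, 0.046% of all genes and none of the 8 passed, and the estimates ran from -0.12 ± 0.07 for NID1 to 0.07 ± 0.08 for LAMA2. These 2 comparisons share the LP-STD libraries. All 95% intervals of the 8 genes ran within -0.29 to 0.39 for the 10% addition and within -0.26 to 0.22 for the 20% addition.

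The second-period libraries are numbered in 3 sets of 16, with a run of 4 libraries of each diet in each set. Over all genes 740 of 13032 (5.68%) differed between runs of the same diet, and of the 8 genes LAMA2 did so (edgeR adjusted p = 0.0213). In LP-STD10, LAMA2 averaged 106 ± 14.0, 101 ± 8.7 and 80.8 ± 11.9 CPM in the 3 runs (n = 4 each), and in LP-STD 91.8 ± 9.7, 75.4 ± 8.3 and 78.6 ± 6.1 CPM. The LP-STD10 minus LP-STD difference in LAMA2 was thus 0.21, 0.42 and 0.03 within sets 1, 2 and 3 on the log2 scale. What a run stands for is not given in the labels, and its part in this estimate was not tested.

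**Figure D3:**
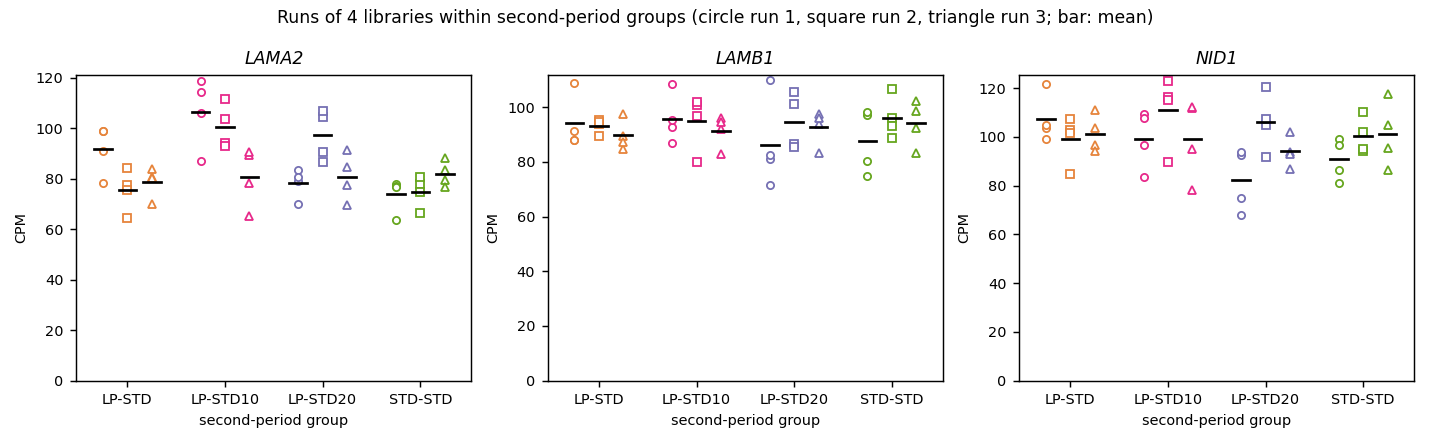
CPM of LAMA2, LAMB1 and NID1 in each second-period library, split by run of 4 within a diet; bars are run means (n = 4) and axes start at 0. LAMA2 in LP-STD10 averaged 106 and 101 CPM in its first 2 runs and 80.8 CPM in the other, while run means of LAMB1 stayed between 86.2 and 96.2 CPM in all 4 diets.

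Against the BL libraries, LAMA2 was lower in both first-period groups, and these 2 comparisons share the 7 BL libraries. LAMA2 had 80.4, 101 and 128 CPM in LP and 79.6, 112 and 141 CPM in STD, against 121, 166 and 173 CPM in BL. Of the LP libraries 5 of 6, and of the STD libraries 4 of 6, lay below the lowest BL library. The log2 difference was -0.57 ± 0.11 for LP (edgeR adjusted p = 0.000881) and -0.46 ± 0.11 for STD (edgeR adjusted p = 0.00713), and without BL replicate 4 it was -0.56 and -0.44, with adjusted p = 0.0023 and 0.0158. In a fit of only the 2 groups compared LAMA2 did not pass (edgeR adjusted p = 0.0579 for LP and 0.137 for STD).

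Among the 8 genes the calls were LAMA2 and LAMC1 lower in STD, beside 4.08% of all genes, and LAMA2 lower in LP, beside 4.02%. LAMA4 was the one gene called higher in LP, beside 2.44% of all genes called higher. LAMC1 had 217, 237 and 247 CPM in STD, against 246, 278 and 300 CPM in BL, with a log2 difference of -0.23 ± 0.07 (edgeR adjusted p = 0.0320). It did not pass without any 1 of BL replicates 3 and 4 or STD replicates 3, 4 and 6 (adjusted p = 0.0561 to 0.0698). LAMA4 had 72.5, 83.4 and 91.3 CPM in LP and 16.7, 58.5 and 84.0 CPM in BL, a log2 difference of 0.46 ± 0.14 (edgeR adjusted p = 0.0369). It did not pass without any 1 of BL replicates 4, 5 and 7 or LP replicates 1, 3, 4, 5 and 6 (adjusted p = 0.0517 to 0.0818), and without BL replicate 4 the difference was 0.29.

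BL replicate 4 had the lowest BL level of 5 of the 8 genes. HSPG2 was 212 CPM there and 504 to 700 CPM in the other BL libraries, LAMB2 171 against 463 to 574 CPM, LAMA4 16.7 against 53.7 to 84.0 CPM, LAMB1 73.7 against 128 to 184 CPM, and NID2 25.0 against 51.7 to 89.3 CPM. LAMC1, at 300 CPM, lay above the other BL libraries, and LAMA2 and NID1 lay within their range. Without this library LAMB2 was lower in both LP (log2 difference -0.32, edgeR adjusted p = 0.0394) and STD (-0.50, adjusted p = 0.000479) than in BL, where with it the differences were -0.16 and -0.35 and did not pass (adjusted p = 0.507 and 0.0889).

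Pairs of chains that take the same place in a laminin trimer, and the nidogens NID1 and NID2, were followed as ratios within a library. Each ratio is compared only with itself across groups, where gene length cancels. The ratio of LAMA4 to LAMA2 averaged 0.82 ± 0.18 in LP and 0.65 ± 0.20 in STD, and 0.40 ± 0.17 in BL. In the second period it was 0.73 ± 0.11 in LP-STD, 0.64 ± 0.11 in LP-STD10, 0.70 ± 0.09 in LP-STD20 and 0.80 ± 0.10 in STD-STD. BL stood lowest, at 0.45 ± 0.11 over the 6 libraries without replicate 4. Its highest library, at 0.62, lay within the ranges of the other groups except STD-STD, whose lowest library was at 0.68. The ratio of LAMB1 to LAMB2 averaged 0.30 to 0.38 in all 7 groups, and that of NID1 to NID2 averaged 2.21 to 3.01, with BL as the most scattered group at 3.01 ± 1.44. Without BL replicate 4, whose ratio was 5.92, the BL value was 2.53 ± 0.73. These ratios are described without a test.

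Within groups the 8 genes varied together to different degrees. With group means taken out, the 28 pairs had Pearson correlations of log2 CPM from -0.07 to 0.90 over the 67 libraries, with a median of 0.38. The highest of these correlations rested in part on BL replicate 4. NID1, LAMA2 and LAMC1 had higher mean correlations with the other 7 genes without that library, and the remaining genes had lower ones. Without it the 28 correlations ran from 0.03 to 0.68, with a median of 0.34. LAMA4 with HSPG2 was the highest pair in both sets (r = 0.90 and, without that library, 0.68), and NID1 with LAMB1 (0.58) and with NID2 (0.54) were among the higher ones over the 66 libraries. LAMA2 had the lowest mean correlation with the other 7 genes, at 0.14 and, without that library, 0.22. Libraries of one group share scaling and runs, and the correlations are given as a description.

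**Figure D4:**
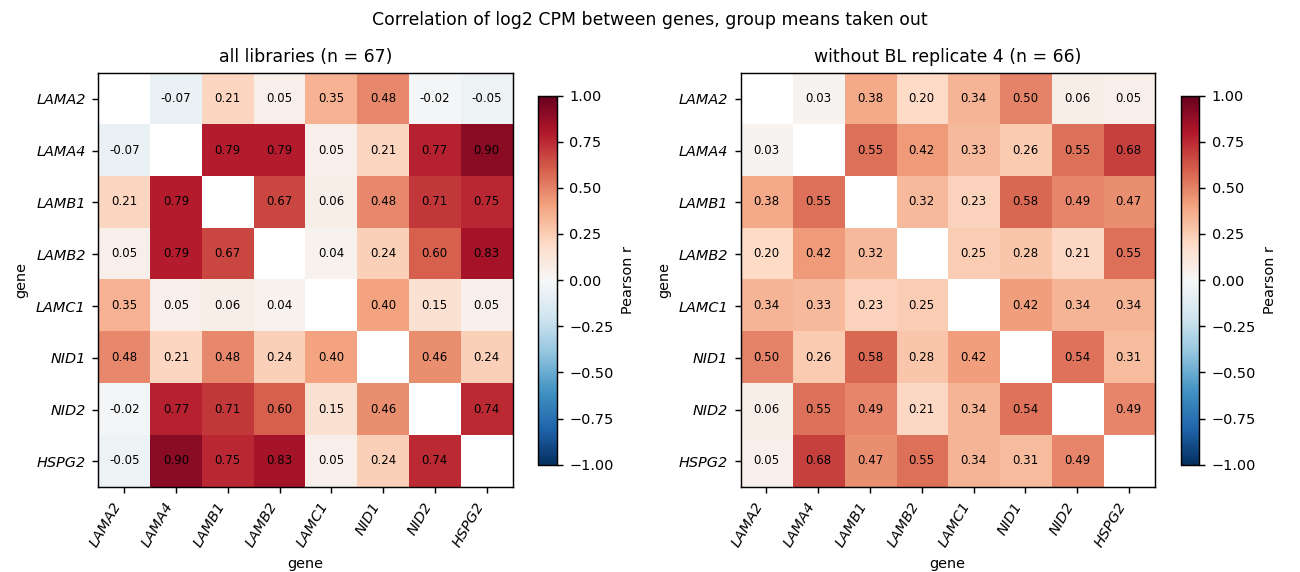
Pearson correlation of log2 CPM between each pair of genes with group means taken out, over all 67 libraries and over 66 without BL replicate 4; colour and printed value give r. The correlations of LAMA4, LAMB1, LAMB2, NID2 and HSPG2 with each other drop without that library, for example from 0.90 to 0.68 for LAMA4 with HSPG2, and LAMA2 keeps low values with LAMA4 and HSPG2 (0.03 and 0.05).

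Of 10021 other genes compared, those most like the mean standardised level of the 8 within groups were COL15A1 (r = 0.82), LTBP4 (0.77), COL21A1 (0.75), SRL (0.75) and NREP (0.74) over 67 libraries. COL15A1 encodes collagen XV, which sits at the outer face of the basement membrane, and LTBP4 is a latent TGF-β binding protein. Without BL replicate 4 the 5 most alike were COL15A1 (0.75), ITIH5 (0.69), LTBP1 (0.64), LTBP4 (0.63) and COL4A1 (0.58), so that COL15A1 and LTBP4 stood in both lists. Gene by gene, COL15A1 was most like LAMA4 (r = 0.91 over the 67 libraries and 0.69 without BL replicate 4) and HSPG2 (0.92 and 0.70), and MCAM most like NID2 (0.79 and 0.62). For 2 genes the closest partner changed with that library. LAMB1 was closest to COL15A1 (0.76) with it and to LTBP1 (0.57) without it, and LAMB2 to COL21A1 (0.81) with it and to PPP1R16A (0.53) without it. LTBP1 was most like NID1 (0.64 and 0.65), C14H10orf71 like LAMA2 (0.73 in both sets) and MRPL3 like LAMC1 (0.58 and 0.56). COL15A1 itself averaged 290 ± 24.8 CPM in LP-STD and 405 ± 26.7 CPM in LP, a log2 difference of -0.48 ± 0.17 (edgeR adjusted p = 0.0335). That call did not hold without any 1 of LP replicates 1, 3, 4 and 6 or LP-STD replicate 12 (adjusted p = 0.0501 to 0.0734).

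The other components of the basement membrane were read from a list of 24 genes, of which 23 were analysed here. In LP-STD against LP 6 of 23 were lower and 3 higher, beside 9.04% and 8.78% of all genes, with a median log2 difference of -0.22. Collagen IV, the second network of the basement membrane beside laminin, was among those lower: COL4A1 averaged 523 ± 66.5 CPM in LP-STD and 750 ± 59.1 in LP (log2 difference -0.52 ± 0.09, edgeR adjusted p = 3.63e-05), and COL4A2 differed by -0.49 ± 0.09. SPARC, a collagen-binding matricellular protein, was lower by -0.60 ± 0.12 and PXDN, the peroxidase that crosslinks collagen IV, by -0.44 ± 0.09. The 3 higher genes were NPNT (nephronectin, an integrin ligand), with 12.0 ± 3.71 CPM in LP-STD and 3.77 ± 1.23 in LP (log2 difference 1.67 ± 0.30), HMCN1 (hemicentin, 0.72 ± 0.18) and NTN4 (netrin 4, which binds the laminin γ1 chain, 0.65 ± 0.17).

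In STD-STD against STD 4 of the 23 were lower and 1 higher, beside 7.89% and 8.01% of all genes, so that the share higher was no larger than that of all genes. The higher one was NTN4, with 15.4 ± 2.85 CPM in STD-STD and 8.17 ± 1.78 in STD (log2 difference 0.91 ± 0.17, edgeR adjusted p = 0.000122). FBLN2, PXDN and TINAGL1 differed by -0.51 ± 0.13, -0.37 ± 0.09 and -0.60 ± 0.17, and TINAGL1 did not pass without STD replicate 4 (adjusted p = 0.0641). COL4A1 differed by -0.27 ± 0.09 (edgeR adjusted p = 0.0384), a call that did not hold in 11 of 19 fits that each left out 1 library (adjusted p up to 0.147). Of the 7 other laminin chains none was called in LP-STD against LP, beside 9.04% of all genes called lower and 8.78% higher. Estimates were below 0 for 6 of the 7, with a median of -0.41. None was called in STD-STD against STD either, where 5 of the 7 were below 0 and the median was -0.27. LAMA5, the other α chain of vessel walls, averaged 60.4 ± 7.15 CPM in LP-STD and 64.7 ± 4.76 in LP, a log2 difference of -0.10 ± 0.10 (edgeR adjusted p = 0.524). The γ chain LAMC3 stayed under 1 CPM in LP, STD, LP-STD and STD-STD. Against BL, LAMA5 was lower in LP (-0.42 ± 0.11, edgeR adjusted p = 0.0102) and in STD (-0.33 ± 0.11, adjusted p = 0.0494), and neither call held without BL replicate 4 (adjusted p = 0.0680 and 0.244); the call in STD was lost in 8 of 13 fits that each left out 1 library.

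Receptors of laminin sit on the fibre and on vessel cells. Of 16 laminin receptor genes 1 was higher and 1 lower in LP-STD against LP, close to the 8.78% and 9.04% of all genes. They were ITGA3 (integrin α3, 0.93 ± 0.26 on the log2 scale) and ITGA1 (integrin α1, -0.52 ± 0.17). The call on ITGA1 did not hold without any 1 of LP replicates 1 and 4 or LP-STD replicate 12 (adjusted p up to 0.139). Dystroglycan (DAG1), the fibre's main laminin receptor outside the integrins, averaged 454 ± 47.2 CPM in LP-STD and 407 ± 34.5 in LP, a log2 difference of 0.16 ± 0.09 (edgeR adjusted p = 0.202). Integrin α7 (ITGA7), the muscle laminin integrin, had 364 ± 35.5 CPM in LP-STD and 326 ± 36.8 in LP (0.16 ± 0.11, adjusted p = 0.336). In STD-STD against STD 2 of 16 were higher and none lower, beside 8.01% and 7.89% of all genes. ITGA7 had 396 ± 36.0 CPM in STD-STD and 323 ± 31.4 in STD (0.29 ± 0.11, edgeR adjusted p = 0.0490), and BCAM, a receptor of the laminin α5 chain, differed by 0.42 ± 0.15. Both calls were often lost when 1 library was left out, in 13 of 19 fits for ITGA7 (adjusted p up to 0.111) and in 11 of 19 for BCAM (up to 0.130).

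The dystrophin-associated complex links dystroglycan to the cytoskeleton of the fibre. Of its 13 genes analysed 1 was lower and 2 higher in LP-STD against LP, beside 9.04% and 8.78% of all genes, with CAV3 (caveolin 3) at -0.52 ± 0.12, SNTB1 (β1 syntrophin) at 0.69 ± 0.19 and NOS1 (neuronal nitric oxide synthase) at 0.91 ± 0.30. None of these 3 passed without LP replicates 1 and 2 (edgeR adjusted p = 0.0803, 0.117 and 0.114), and NOS1 did not pass without any 1 of LP replicates 1, 2 and 4. In STD-STD against STD 5 were lower and 1 higher, beside 7.89% and 8.01%. Dystrophin (DMD) averaged 139 ± 13.6 CPM in STD-STD and 181 ± 7.89 in STD (log2 difference -0.38 ± 0.09, edgeR adjusted p = 0.00173), while in LP-STD against LP it differed by 0.13 ± 0.09 (adjusted p = 0.331). The interaction of DMD, which compares the 2 steps, was 0.51 ± 0.13 and did not pass (edgeR adjusted p = 0.0724). SGCE and SGCA (ε and α sarcoglycan) and CAV3 were lower by -0.45 ± 0.11, -0.57 ± 0.17 and -0.45 ± 0.12. NOS1, at 0.89 ± 0.30, was the higher one, and it did not pass without any 1 of STD replicates 2, 5 and 6.

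**Figure D5:**
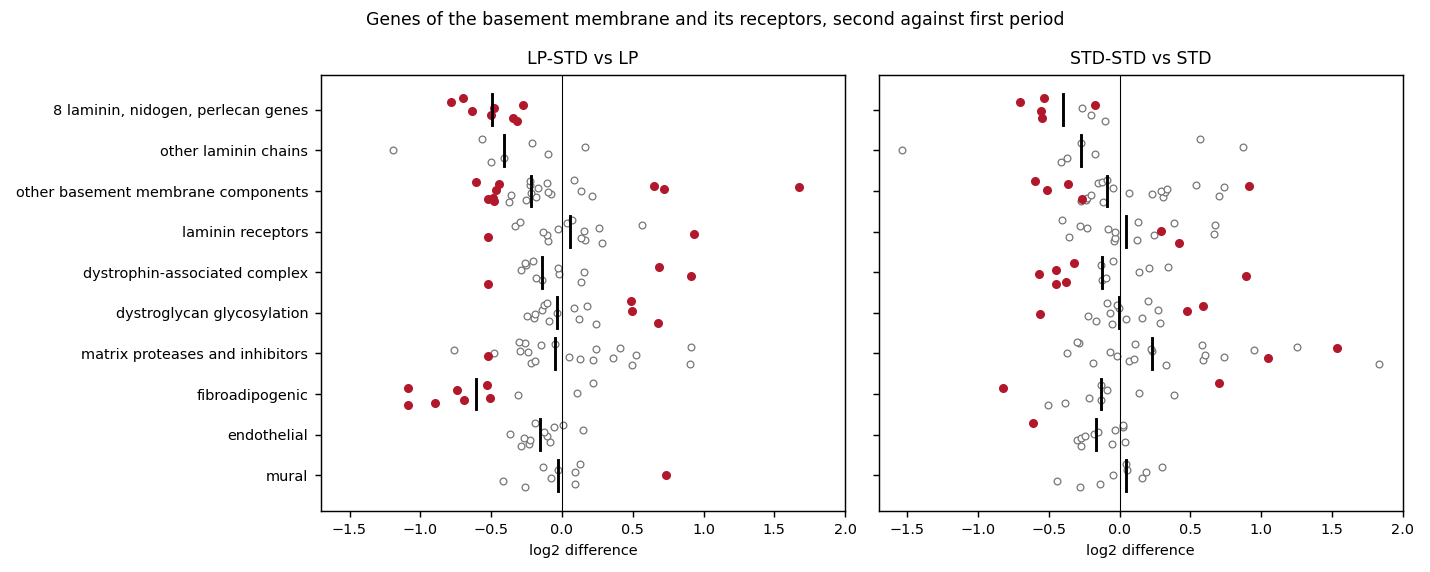
Log2 difference of each gene of 10 lists in LP-STD against LP and in STD-STD against STD; filled points had an adjusted p under 0.05 and black bars are list medians. The 8 laminin, nidogen and perlecan genes had medians of -0.49 and -0.40, and the other laminin chains -0.41 and -0.27. The laminin receptors had 0.06 and 0.05, and the fibroadipogenic markers -0.61 and -0.13.

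Markers of the cells that make basement membrane were read beside these results. Of 10 fibroadipogenic markers 7 were lower in LP-STD than in LP, beside 9.04% of all genes called lower and 8.78% higher. Among the 7 were MFAP5 (-1.09 ± 0.18), COL1A1 (-1.09 ± 0.21), LUM (-0.74 ± 0.17) and COL1A2 (-0.90 ± 0.21). The median log2 difference of the 10 was -0.61. Their summed level was 4368 to 9894 CPM in LP-STD, against 8305 to 15240 CPM in LP, and no marker was at 0. None of 12 endothelial markers passed, with sums of 355 to 592 CPM in LP-STD and 475 to 570 CPM in LP, and of 9 mural (vessel wall) markers MYH11 alone was higher, with sums of 378 to 587 CPM in LP-STD and 438 to 531 CPM in LP. Estimates were below 0 for 10 of the 12 endothelial markers (median -0.16) and for 5 of the 9 mural markers (median -0.03). In STD-STD against STD 1 of the 10 fibroadipogenic markers was lower (MFAP5, -0.83 ± 0.18) and 1 higher (PI16, 0.70 ± 0.23), beside 7.89% and 8.01% of all genes. PI16 did not pass in 4 of 19 fits that each left out 1 library (edgeR adjusted p = 0.0537 to 0.0756). The 10 markers summed to 4478 to 10298 CPM in STD-STD and 6730 to 10280 CPM in STD. There 1 of 12 endothelial markers, VWF, was lower (-0.61 ± 0.13), with sums of 413 to 533 CPM in STD-STD and 481 to 622 CPM in STD. Of these 12 markers 9 had estimates below 0, and their median was -0.16. None of the 10 fibroadipogenic markers passed in the interaction, where all 10 estimates were below 0 and the median was -0.50. The part of these cell markers in the levels of the 8 genes was not tested.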

How the data were processed

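RNA-seq of pig longissimus dorsi was analysed in 67 libraries. The deposited table holds raw read counts per gene made by the authors; the submitters' processing notes name the assembly Sscrofa11.1 and DESeq2, without a role or version, while no aligner or counter is named, and neither strand use nor the handling of reads matching several genes is given in the sources used here. Groups came from the library titles. The library totals were 26680567 to 36935497 counts, and no per-sample column was left unused. Nothing in the labels says which libraries share a litter, so p-values measure the spread between these libraries.

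Counts were tested across the whole table with edgeR 4.0.16 (R 4.3.3; filterByExpr, TMM, robust quasi-likelihood), and p was adjusted by Benjamini and Hochberg's method and called under 0.05. The contrast of LP with STD was fitted on 12 libraries, second-period comparisons on 48, and comparisons across periods, against BL and the interaction on all 67. CPM used TMM-scaled library sizes, and log2 CPM a prior count of 2. DESeq2 1.42.0 and limma 3.58.1 served as alternatives. The script was tested on simulated counts. Tables and plots used Python 3.11.15 with matplotlib 3.10.9, pandas 2.3.3, numpy 2.4.6 and scipy 1.17.1. Gene symbols were matched to RefSeq Sscrofa11.1 for 16989 of 18158 rows, all 8 genes included.

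The 8 genes and the companion lists were chosen with earlier results of these data known. Which values drew the choice is not recorded, so calls on the 8 in any comparison are descriptions beside the share of all genes called. All 8 are named in every comparison; of each companion list up to 4 genes per direction and comparison, by lowest p among those past the threshold, with further list members named for their level. The genes most alike were the 5 of highest Pearson r with the mean of the 8, group means taken out, among genes whose symbol is not a LOC number, with a mean log2 CPM of at least 1. Fits without LP replicates 1 and 2 together, fits of other contrasts without BL replicate 4, correlations without it and limma with correlated runs were added after seeing the data. Results for some genes of the companion lists are not reported here.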

Additional observations from a re-analysis of the deposited data

Results flagged for a closer look

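Of 24 gene and group combinations with 6 or 7 libraries, 3 held a library whose gap to its nearest neighbour was large against the whole range of its group (Dixon's test at the 95% level, which chance meets in about 1 group in 20). In BL replicate 4, LAMB2 was 171 CPM, against 463 to 574 CPM in the other 6 BL libraries. HSPG2 was 212 CPM in the same library, against 504 to 700 CPM in the others. Its total of 29064844 counts lay within the range of the other libraries. NID2 was 64.2 CPM in LP replicate 2 and 73.3 to 77.0 CPM in the other 5 LP libraries, a value that was still above the highest LP-STD library, at 59.1 CPM.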

How the results depend on the processing

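The 8 genes gave 2032 values under single changes of setting (other normalization, DESeq2, limma, no filter on low counts, blocks, other sets of libraries), and none with a call in the original fit changed sign. Of these values 1974 kept their side of the threshold and moved by less than their SE where there was no call, 38 lost a call, 8 gained one and 12 moved further without a call. All 8 genes stayed called in LP-STD against LP except without LP replicate 2 (7) and without LP replicates 1 and 2 (6), and no alternative called any of them in LP against STD, LP-STD against STD-STD, either lysine comparison or the interaction. Leaving out 1 library at a time gave 4 to 6 called for STD-STD against STD, 1 to 2 for STD against BL and 1 to 3 for LP against BL. Limma with quality weights called 7 in STD-STD against STD, with LAMA4 and LAMB2 added, and 3 in STD against BL. A fit of only the groups compared called 0 of the 8 against BL in both STD and LP, and LP against BL gave 1 called without LP replicates 1 and 2.

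Counts over all genes moved more. DESeq2 called 109 genes in LP against STD (edgeR 0), 7 in LP-STD against STD-STD (edgeR 0), 149 in LP-STD10 against LP-STD (edgeR 53), 109 in LP-STD20 against LP-STD (edgeR 6) and 77 in the interaction (edgeR 22). Limma with quality weights called 1, 411 and 77 in LP against STD, LP-STD20 against LP-STD and the interaction. Summing counts over runs of 4 gave 1 for LP-STD10 and 0 for LP-STD20 against LP-STD, and a block for the library set gave 10 for LP-STD20. A fit of only the groups compared gave 3 for LP-STD20 against LP-STD, 106 for STD against BL (905 in the fit of all libraries), 53 for LP against BL (873) and 52 for the interaction, and all 67 libraries in the fit gave 1 for LP against STD. Without LP replicates 1 and 2, LP-STD against LP had 1384 (2409 with them) and the interaction 0, as it had with correlated runs. Leaving out 1 library at a time gave 0 to 3 for LP against STD, 0 to 1 for LP-STD against STD-STD, 22 to 170 for LP-STD10 and 2 to 176 for LP-STD20 against LP-STD (both highest without LP-STD replicate 5), 1544 to 2587 for STD-STD against STD, 1648 to 2837 for LP-STD against LP, 555 to 1165 for STD against BL, 506 to 1182 for LP against BL and 0 to 31 for the interaction. The causes were not tested.

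Same-numbered libraries showed no clear pairing: their deviations correlated at -0.12 to 0.09 between LP and STD and at -0.24 to 0.31 between LP-STD and STD-STD, and 0 of 6 and 2 of 12 libraries correlated best with their own number. Between LP-STD and STD-STD 6 of the 12 pairs were above 0.1, with a mean of 0.05, against -0.005 for other pairs. Same-numbered libraries of the second period also share a library set, so a pairing by litter cannot be shown or excluded here. With the replicate number as a block, 4 of the 8 genes were called in STD-STD against STD, 8 in LP-STD against LP and 1 in LP against BL; over all genes it called 29 in LP-STD20 against LP-STD and 7 in the interaction.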

Other observations

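Of 21 matrix proteases and inhibitors, MMP14 was the one called in LP-STD against LP (9.04% of all genes were called lower and 8.78% higher), at -0.52 ± 0.15 (edgeR adjusted p = 0.0111, and 0.105 without LP replicates 1 and 2). In STD-STD against STD, PLAU (1.54 ± 0.51) and CTSS (1.05 ± 0.37) were higher, calls lost in 5 and 12 of 19 fits that each left out 1 library (adjusted p up to 0.210 and 0.0824). MMP9 was higher in LP-STD10 than in LP-STD by 3.95 ± 0.98 (edgeR adjusted p = 0.0498). That call was lost in 15 of 24 such fits, with an adjusted p of 0.404 without LP-STD10 replicate 10. Against BL, STD had lower MMP2 (-0.40 ± 0.13) and HMCN2 (-0.55 ± 0.16), with MMP2 lost in 9 and HMCN2 in 3 of 13 such fits. Of 10 markers of connective tissue cells 2 were called in LP against BL, beside 2.44% of all genes called higher. They were LUM and DPT, higher in LP by 1.08 ± 0.19 and 1.02 ± 0.21. In that comparison 3 of the 10 had estimates below 0, and the median was 0.37. LUM was also higher in STD than in BL by 0.60 ± 0.19, beside 2.62% of all genes called higher, and was lost in 8 of 13 fits. LUM was the one of the 10 markers of that list to pass for STD, where 6 of the 10 had estimates below 0, among them MFAP5 (-0.61 ± 0.21, edgeR adjusted p = 0.0680) and PI16 (-0.61 ± 0.26, adjusted p = 0.149), and the median was -0.08.

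Among the remaining cell marker lists, none of 4 Schwann cell, 7 macrophage and 5 satellite cell markers passed in either step between periods. Of 7 muscle fibre markers NEB was higher (0.38 ± 0.12) and TNNT1 lower (-0.83 ± 0.23) in LP-STD than in LP, beside 8.78% and 9.04% of all genes. ACTA1 had a log2 difference of -0.49 ± 0.14 between STD-STD and STD (edgeR adjusted p = 0.0105), where 7.89% of all genes were called lower. TNNT1 did not pass without LP replicate 6 (edgeR adjusted p = 0.0522). Both erythroid markers tested, ALAS2 and HBM, were lower in LP-STD than in LP, by log2 differences of -1.61 ± 0.37 and -2.14 ± 0.53, beside 9.04% of all genes called lower. Their levels were very low: the 3 erythroid markers with counts summed to 0.42 to 1.13 CPM in LP-STD and 1.40 to 2.97 CPM in LP. HBB and HBA were not analysed here.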
